A study of Mus musculus with 9 samples.

Results

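The genes described here encode enzymes and membrane proteins of the lysosome, and they were measured by RNA sequencing in microglia, the resident macrophages of the brain. They were chosen by name, with earlier results of these data known, and not by a threshold on their values: 34 symbols were looked up among the 45664 rows of the count table, and all 34 were found and passed the filter on low counts that left 13067 genes for testing. They comprise 12 enzymes that degrade sugar chains, 7 enzymes and cofactors that act on lipids and peptides, 10 membrane proteins, 4 components of the proton pump (V-ATPase) and Tfeb, a transcription factor.

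The microglia came from the bilateral visual cortex of adolescent male C57BL/6 mice, and were collected by fluorescence-activated sorting as propidium iodide negative, CD11b positive cells with low CD45. There were 9 libraries, each made from 1 mouse. The saline group held 5 mice, aged 36, 30, 35, 29 and 30 postnatal days (saline 1 to 5), and the ethanol group 4 mice, aged 35, 35, 30 and 30 days (ethanol 1 to 4). Ethanol had been injected under the skin at 1.8 g/kg, 2 times a day, from postnatal day 4 to 9 (3.6 g/kg per day), and the saline mice had received equal volumes of saline on the same days. No further ethanol was given, so the exposure ended weeks before collection. Pups of 3 litters were used, with no record here of which mouse came from which. The study asks whether early exposure changes microglia in adolescence. In RNA from a sorted population, fewer cells of a type and less RNA per cell cannot be told apart.

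Lysosomes are acidic compartments in which proteins, lipids and sugar chains taken up from outside the cell or delivered by autophagy are broken down. The V-ATPase pumps protons into the lumen, soluble hydrolases work at that low pH, and membrane proteins line the compartment, export the products and signal nutrient state. Microglia are professional phagocytes that clear synapses, myelin and dead cells, and inherited defects of many of these genes cause lysosomal storage disorders that affect the brain. TFEB is known to bind an E-box element upstream of many lysosomal genes and to raise their transcription.

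Because the TFEB element is one feature that could be shared by these genes, the sequence just upstream of their starts was read from RefSeq promoters (GRCm38.p6, 250 bases before to 50 after each start), where 32 of the 34 genes had an entry. The motif searched was TCACGTG on either strand, which reads CACGTGA on the other, and which contains the general E-box CACGTG. It was found in 9 of the 32 promoters (28.1%), against 4.29% of 27025 genes with a promoter of the same length and 6.97% of the 9350 tested genes that had one. The palindrome TCACGTGA, in which both 7-base forms overlap, was present in 5 of the 32 (15.6%). It was in 1.12% of all genes and in 2.25% of the tested genes with a promoter. The 9 stretches are shown 5′ to 3′ on the gene's own strand, with every match in capitals, because they carry the letters on which these counts rest.
Cln3, chr7:126583321-126583415, minus strand: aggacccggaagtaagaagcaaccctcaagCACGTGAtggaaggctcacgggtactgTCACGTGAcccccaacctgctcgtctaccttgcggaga
Mcoln1, chr8:3500417-3500510, plus strand: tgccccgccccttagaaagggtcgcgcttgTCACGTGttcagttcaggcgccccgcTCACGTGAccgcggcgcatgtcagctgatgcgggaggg
Lamp1, chr8:13159088-13159162, plus strand: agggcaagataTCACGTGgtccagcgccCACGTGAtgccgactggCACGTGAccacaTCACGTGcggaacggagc
Atp6v0d1, chr8:105566050-105566079, minus strand: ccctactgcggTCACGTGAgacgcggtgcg
Glb1, chr9:114400999-114401065, plus strand: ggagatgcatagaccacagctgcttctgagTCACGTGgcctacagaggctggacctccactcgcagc
Naglu, chr11:101069990-101070056, plus strand: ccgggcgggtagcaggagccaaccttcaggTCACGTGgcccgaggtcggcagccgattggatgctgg
Gaa, chr11:119267792-119267858, plus strand: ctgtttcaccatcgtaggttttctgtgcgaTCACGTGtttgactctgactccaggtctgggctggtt
Atp6v1a, chr16:44139354-44139421, minus strand: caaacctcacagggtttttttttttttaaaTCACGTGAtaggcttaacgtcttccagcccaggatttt
Gla, chrX:134601163-134601255, minus strand: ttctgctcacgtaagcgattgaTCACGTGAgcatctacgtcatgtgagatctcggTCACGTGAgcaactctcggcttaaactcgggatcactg

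Lamp1, a major glycoprotein of the lysosomal membrane, had 4 matches between 61 and 15 bases before its start. Cln3, Mcoln1 and Gla had 2 each, and the other 5 genes had 1. The nearest to a start was that of Atp6v0d1, whose CACGTG began 3 bases upstream, so that the match ran across the start. All starts here are those of RefSeq. By GENCODE M21 coordinates, the stretches of Cln3 and Atp6v1a, the match of Naglu and the later match of Mcoln1 lay inside the gene. Of 38 promoter entries of the members, 31 had the bases after the start in a GENCODE transcript of the gene. A wider list of 110 further lysosomal genes had the motif in 21 of the 84 with a promoter (25.0%). A match describes the letters only; binding was not measured in these samples.

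Library totals ran from 12816198 to 28859244 counts, and 16835 to 18896 genes had at least 1 count. Levels are given as CPM, a gene's counts scaled to library size with TMM factors, and levels of different genes are compared only as CPM per kilobase of merged exon length. Microglial markers such as Cx3cr1, P2ry12 and Csf1r were high in every library, summing to 57312 to 67219 CPM over 10 genes. The lymphocyte markers Cd3e, Cd3g and Nkg7 and the neutrophil markers S100a8 and S100a9 had 0 counts throughout. Their full lists were not silent. The 6 lymphocyte markers summed to 44.7 to 68.9 CPM over the libraries, and the 6 monocyte and neutrophil markers to 4.69 to 16.0 CPM. The 9 neuronal markers summed to 3.64 CPM in saline 1 against 75.4 to 292 CPM elsewhere, and the 9 astrocyte markers to 7.79 CPM against 154 to 444 CPM. Of the neuronal sum, Kif5a alone gave 1.46 CPM in saline 1 and 60.7 to 255 CPM elsewhere. The 6 markers of border macrophages summed to 48.4 to 81.7 CPM in saline and 39.1 to 91.3 CPM in ethanol libraries. Most of that was Mrc1 (37.1 to 89.1 CPM), and each of the others was at 2.52 CPM or less in every library. A pair of libraries stood apart. Of 8480 genes with at least 10 CPM, 615 lay more than 2-fold below their median over the libraries in ethanol 2 and 36 in saline 1, against 0 to 5 in each of the others. Results are therefore also given without these libraries.

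The 34 genes made up 2.72% of the scaled counts, and their levels were high among the genes of these cells. Their median level was 65.2 CPM per kilobase, against 5.34 over all genes with a length, and their median percentile among tested genes, per kilobase, was 95.7. The highest was Laptm5, at 1646 CPM per kilobase, followed by Psap (1393), Grn (927), Cd68 (925), Hexa (686) and Lamp1 (673). Over the libraries Laptm5 (1527 to 1827) overlapped Psap (1108 to 1568), Grn (821 to 1083) overlapped Cd68 (792 to 1100), and Hexa (627 to 827) overlapped Lamp1 (597 to 790). With the longest transcript in place of merged exons, Hexa and Lamp1 changed places. The lowest was Gla, at 2.10 CPM per kilobase.

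**Figure D1:**
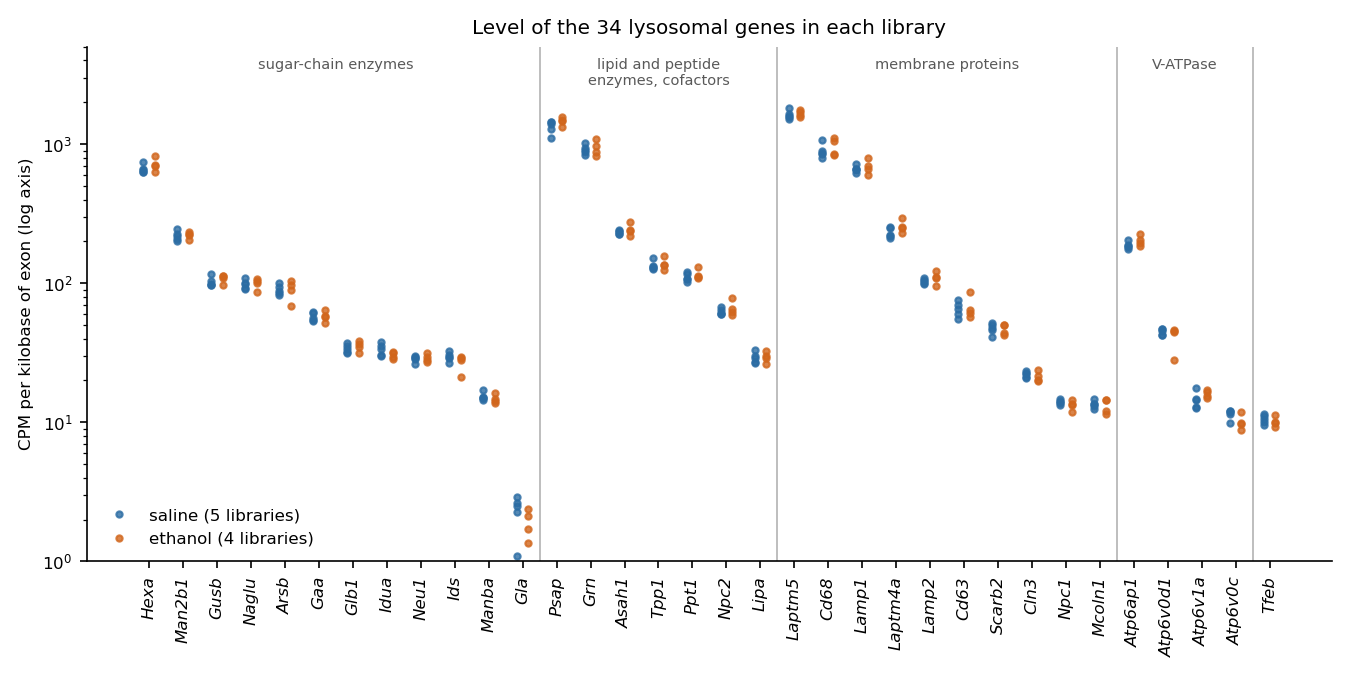
Level of each of the 34 lysosomal genes in CPM per kilobase of exon (log axis), 1 point per library, saline on the left and ethanol on the right of each name, grouped by role. The points run from 1.10 for Gla in saline 2 to 1827 for Laptm5 in saline 1, and for every gene the saline and ethanol points overlap.

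The genes held nearly the same level from mouse to mouse. Their coefficient of variation over the 9 libraries had a median of 8.21%, against 16.1% for all tested genes and 10.5% for the 4937 genes within the members' range of level, Gla left out, from Atp6v0c (36.8 CPM) to Laptm5 (6233 CPM). It was below that 10.5% for 25 of the 34. The 4937 genes share only the outer range and were not matched in level gene by gene. The 106 tested genes of the wider lysosomal list had a median of 10.6%. Their median level was 102 CPM, against 286 CPM for the 34. The highest library was within 1.5-fold of the lowest for 29 genes and within 2-fold for 33. The exception was Gla, at 2.64-fold.

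After early ethanol none of the 34 genes was called changed. Of 13067 genes tested, edgeR's quasi-likelihood test with Benjamini-Hochberg adjustment called 0 (0%), and the smallest adjusted p was 0.963. At an unadjusted p under 0.05 it picked 386 genes (2.95%) and 0 of the 34, whose smallest unadjusted p was 0.104. DESeq2 and limma-voom also called 0 genes, with 435 and 504 at an unadjusted p under 0.05, none of them a member. The 4 ethanol libraries lay wholly above or wholly below the 5 saline libraries for 168 genes (1.29%), and for 0 of the 34.

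The intervals bound the size of any difference. For 33 of the 34 genes, the 95% interval of the ethanol effect lay within a 1.5-fold change in either direction, as it did for 59.4% of all tested genes. The median level was 286 CPM for the 34 and 22.0 CPM for all tested genes. The 2 shares were not matched for level, so they cannot be read as a difference particular to these genes. Gla was the exception, with an interval from −0.85 to 0.33 on the log2 scale. The median log2 fold change of the 34 was 0.02, with 22 above 0, against a median of −0.00068 and 6505 of 13067 above 0 for all genes. The values ran from −0.26 (Gla) to 0.16 (Laptm4a). By role, 7 of 12 sugar-chain enzymes, 7 of 7 lipid and peptide proteins, 6 of 10 membrane proteins and 2 of 4 V-ATPase genes were above 0, none past the test. Without ethanol 2 the count was 16 of 34, and without both saline 1 and ethanol 2 it was 21 of 34, with 0 genes called in either case. Within the younger mice alone 15 were above 0, and within the older mice alone 22.

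**Figure D2:**
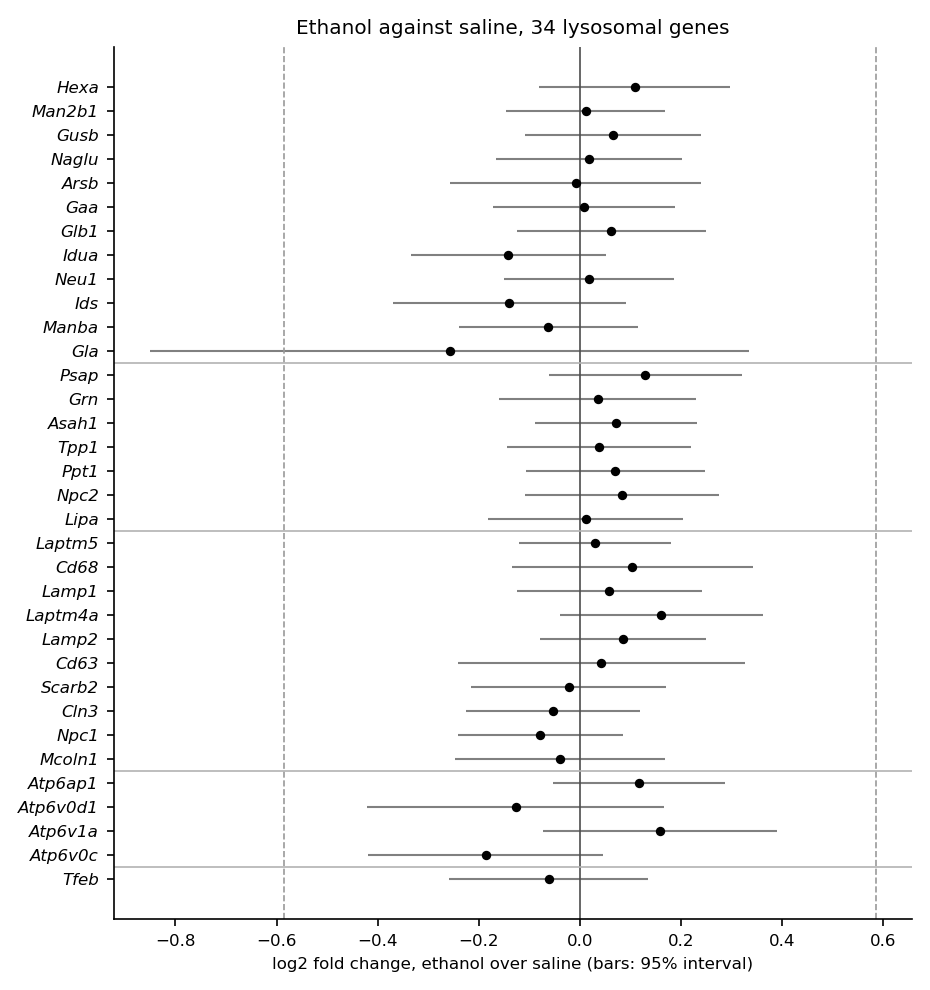
Log2 fold change of ethanol over saline for each gene (points) with its 95% interval (bars), grouped by role in the order sugar-chain enzymes, lipid and peptide proteins, membrane proteins, V-ATPase and Tfeb. The dashed lines mark a 1.5-fold change; the interval of Gla alone crosses one of them, and every interval includes 0.

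Among the enzymes that take sugar chains apart, Hexa was the most abundant. It encodes the alpha subunit of beta-hexosaminidase A, which degrades gangliosides (chr9:59539540-59565109, plus strand, GRCm38). It shares 255 exonic bases with Tmem202 on the other strand. Its level was 1475, 1266, 1296, 1317 and 1262 CPM in saline 1 to 5 and 1391, 1650, 1412 and 1251 CPM in ethanol 1 to 4. Saline 1 and ethanol 2 were the highest of their groups, and the lowest of all was ethanol 4. The means were 1323 ± 87.9 CPM (SD, n = 5) and 1426 ± 166 CPM (SD, n = 4). Ethanol over saline was 0.11 on the log2 scale (95% interval −0.08 to 0.30), with an adjusted p of 0.963 by edgeR, and 0.03 without ethanol 2.

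Idua, alpha-L-iduronidase, trims heparan and dermatan sulfate and had the smallest unadjusted p of the sugar-chain enzymes (chr5:108660331-108684557, plus strand). It was at 160, 148, 126, 128 and 142 CPM in the saline and 124, 134, 132 and 120 CPM in the ethanol libraries. The lower saline libraries, 3 and 4, lay among the ethanol libraries. The means were 141 ± 14.3 CPM (SD, n = 5) and 128 ± 6.78 CPM (SD, n = 4). The log2 fold change of Idua was −0.14 (95% interval −0.33 to 0.05; unadjusted p = 0.136 and adjusted p = 0.963 by edgeR). Exons of Idua share 124 bases with Dgkq and 141 with Slc26a1 on the other strand. Whether reads were counted by strand is not given.

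Gusb encodes beta-glucuronidase, which cleaves glucuronic acid from glycosaminoglycans (chr5:129989011-130003049, minus strand). Its levels were 533, 442, 475, 452 and 442 CPM in saline 1 to 5. In ethanol 1 to 4 they were 512, 514, 495 and 443 CPM. The range was narrow in both groups, and the means were 469 ± 38.0 CPM (SD, n = 5) and 491 ± 33.3 CPM (SD, n = 4). The ethanol log2 fold change was 0.07 (95% interval −0.11 to 0.24; adjusted p = 0.963 by edgeR). With 1 library left out it lay between 0.04 (without ethanol 2) and 0.12 (without saline 1).

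Arsb is arylsulfatase B, which removes sulfate from dermatan and chondroitin sulfate (chr13:93771630-93943016, plus strand). The saline libraries stood at 527, 568, 495, 608 and 516 CPM and the ethanol libraries at 539, 413, 623 and 584 CPM. Ethanol 2 was the lowest of all 9 and ethanol 3 the highest. With means of 543 ± 45.3 CPM (SD, n = 5) and 540 ± 91.2 CPM (SD, n = 4), the log2 fold change was −0.0083 (95% interval −0.26 to 0.24; adjusted p = 0.994 by edgeR). Without ethanol 2 it was 0.10, without saline 2 0.0094 and without saline 4 0.04, so its sign rested on single libraries. Arsb shares 1948 of its 6037 exonic bases with Gm26527 on the other strand, a gene with 0 counts. With the strand setting not given, this leaves the counts of Arsb uncertain.

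The other 8 sugar-chain enzymes lay below Hexa. Man2b1, an alpha-mannosidase of N-linked chains, averaged 221 CPM per kilobase. Naglu, which works on heparan sulfate, averaged 99.0, and Gaa, the acid glucosidase of glycogen, 57.6. Glb1, the beta-galactosidase of gangliosides and keratan sulfate, averaged 34.6; it shares 165 exonic bases on the same strand with Tmppe, which leaves its counts uncertain. Neu1, a sialidase, averaged 28.9, Ids, a sulfatase of heparan and dermatan sulfate, 28.4, and Manba, the beta-mannosidase, 15.1. Their ethanol log2 fold changes ran from −0.14 (Ids) to 0.06 (Glb1), leaving Gla aside.

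Gla, the alpha-galactosidase that degrades globo-series glycolipids, was singled out after its values were seen, as the lowest and most variable member. It stood at 9.47, 3.59, 7.37, 8.13 and 8.53 CPM in saline 1 to 5 and 4.45, 5.60, 7.74 and 6.87 CPM in ethanol 1 to 4. Both the lowest library, saline 2, and the highest, saline 1, were saline libraries. Its coefficient of variation was 28.4%. Its log2 fold change was −0.26 with an SE of 0.27 and an adjusted p of 0.963 by edgeR, and without saline 2 it was −0.44.

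Of the proteins that act on lipids and peptides, Psap had both the highest level and the smallest p. It encodes prosaposin, the precursor of the saposins that present sphingolipids to their hydrolases (chr10:60277627-60302597, plus strand). Saline 1 to 5 had 3842, 3040, 3554, 3944 and 3974 CPM, and ethanol 1 to 4 had 4004, 4303, 4092 and 3656 CPM. The libraries ethanol 1, 2 and 3 lay above every saline library, and ethanol 4 lay among them. The means were 3671 ± 390 CPM (SD, n = 5) and 4014 ± 269 CPM (SD, n = 4), with a log2 fold change of 0.13 (95% interval −0.06 to 0.32; unadjusted p = 0.166 and adjusted p = 0.963 by edgeR). Without saline 2, its lowest library, it was 0.07.

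Grn encodes progranulin, a secreted and lysosomal protein whose loss causes neuronal ceroid lipofuscinosis and frontotemporal dementia; it was picked after its values were seen, for its level. It stood at 3535, 2913, 3047, 3170 and 3262 CPM in saline and 3068, 3762, 3372 and 2853 CPM in ethanol libraries. The highest library was ethanol 2 and the lowest ethanol 4. Its log2 fold change was 0.04 (95% interval −0.16 to 0.23; adjusted p = 0.975 by edgeR) and −0.04 without ethanol 2. Asah1, acid ceramidase, averaged 237 CPM per kilobase, and Tpp1, a tripeptidyl peptidase, 135. Ppt1, which removes fatty acids from proteins, averaged 113, Npc2, the soluble cholesterol carrier, 64.3, and Lipa, the acid lipase of cholesteryl esters, 29.2. All 7 had fold changes above 0, from 0.01 (Lipa) to 0.13 (Psap), and none passed the test.

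Laptm5, a membrane protein of lysosomes in blood-derived and myeloid cells, led the membrane group (chr4:130913125-130936141, plus strand). Its level was 6921, 5955, 5783, 6199 and 6020 CPM in saline 1 to 5 and 6419, 6146, 6702 and 5954 CPM in ethanol 1 to 4. Highest of all was saline 1 and lowest saline 3, both of them saline libraries. The means were 6176 ± 443 CPM (SD, n = 5) and 6305 ± 326 CPM (SD, n = 4), and the log2 fold change was 0.03 (95% interval −0.12 to 0.18; adjusted p = 0.974 by edgeR). It was −0.00049 without ethanol 3.

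Cd68, macrosialin, is a heavily glycosylated endolysosomal protein widely used as a marker of phagocytic activity (chr11:69664213-69666153, minus strand). Saline libraries had 1345, 1124, 995, 1086 and 1076 CPM. Ethanol libraries had 1073, 1383, 1327 and 1053 CPM. Saline 1, ethanol 2 and ethanol 3 were high and the other 6 libraries lay at 995 to 1124 CPM. The means were 1125 ± 132 CPM (SD, n = 5) and 1209 ± 170 CPM (SD, n = 4), with a log2 fold change of 0.10 (95% interval −0.13 to 0.34; adjusted p = 0.963 by edgeR). It was 0.18 without saline 1 and 0.03 without ethanol 2.

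Lamp1, the membrane glycoprotein, lies on chromosome 8 (chr8:13159161-13175338, plus strand), and its promoter holds the 4 E-box matches printed earlier. It was at 1918, 1731, 1651, 1768 and 1770 CPM in saline 1 to 5 and at 1786, 2113, 1865 and 1597 CPM in ethanol 1 to 4. Both extremes, ethanol 2 and ethanol 4, were ethanol libraries. From means of 1768 ± 96.9 CPM (SD, n = 5) and 1840 ± 214 CPM (SD, n = 4) the log2 fold change was 0.06 (95% interval −0.12 to 0.24; adjusted p = 0.963 by edgeR). Without ethanol 2 it was −0.02. Lamp1 shares 249 exonic bases with Grtp1 on the other strand.

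Laptm4a, a small transmembrane protein of late endosomes and lysosomes, had the smallest p of the membrane group (chr12:8921664-8938742, plus strand). The saline libraries stood at 443, 372, 392, 449 and 385 CPM, and the ethanol libraries at 446, 526, 448 and 405 CPM. Saline 1 and 4 reached the level of ethanol 1 and 3, and ethanol 2 was the highest of all. The means were 408 ± 35.1 CPM (SD, n = 5) and 456 ± 50.4 CPM (SD, n = 4). The log2 fold change was 0.16 (95% interval −0.04 to 0.36; unadjusted p = 0.105 and adjusted p = 0.963 by edgeR). It was 0.08 without ethanol 2 and 0.21 without ethanol 4, where its unadjusted p was 0.043, and 0.19 with the library-name suffix as a covariate, where it was also 0.043.

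The remaining membrane proteins covered transport and signalling. Lamp2, which also serves autophagy, averaged 106 CPM per kilobase, Cd63, a tetraspanin, 66.2, and Scarb2, the receptor that carries glucocerebrosidase to lysosomes, 47.0. Cln3, mutated in juvenile neuronal ceroid lipofuscinosis, averaged 21.8; it shares 442 exonic bases with Apobr on the other strand. Npc1, which exports cholesterol together with Npc2, averaged 13.7, and Mcoln1, a cation channel that releases calcium from lysosomes, 13.3. Their ethanol log2 fold changes lay between −0.08 (Npc1) and 0.08 (Lamp2).

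The proton pump was represented by 4 genes. Atp6ap1, an accessory subunit, was the highest (chrX:74297097-74304721, plus strand), with 623, 563, 574, 532 and 551 CPM in saline 1 to 5 and 588, 690, 623 and 566 CPM in ethanol 1 to 4. Ethanol 2 was the highest, and saline 1 equalled ethanol 3 within 1 CPM. The means were 569 ± 34.3 CPM (SD, n = 5) and 617 ± 54.1 CPM (SD, n = 4), and the log2 fold change was 0.12 (95% interval −0.05 to 0.29; adjusted p = 0.963 by edgeR).

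Atp6v0c, the proteolipid that forms the rotating ring of the membrane sector, had the smallest ethanol p of all 34 genes (chr17:24163866-24169702, minus strand). It was at 41.0, 39.0, 33.7, 39.9 and 41.2 CPM in saline and at 33.7, 29.9, 40.3 and 33.0 CPM in ethanol libraries. Saline 3 lay with the lower ethanol libraries and ethanol 3 with the higher saline libraries, so the groups overlapped. The means were 38.9 ± 3.06 CPM (SD, n = 5) and 34.2 ± 4.40 CPM (SD, n = 4). Between the groups the log2 fold change was −0.19 (95% interval −0.42 to 0.04; unadjusted p = 0.104 and adjusted p = 0.963 by edgeR). It was −0.13 without ethanol 2 and −0.28 without ethanol 3, where its unadjusted p was 0.022. Processed pseudogenes of Atp6v0c match it over 389 bases at 97.2% and over 387 bases at 99.7% identity, so its counts are uncertain.

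Atp6v1a, the catalytic subunit, averaged 15.2 CPM per kilobase, with an ethanol log2 fold change of 0.16. Without saline 5, its highest library, this was 0.24, with an unadjusted p under 0.05. Atp6v0d1, a stalk subunit of the membrane sector, averaged 43.2 CPM per kilobase and was picked after its values were seen. It lay at 81.2, 76.5, 83.4, 84.7 and 76.4 CPM in saline and at 79.5, 50.3, 83.1 and 81.9 CPM in ethanol libraries. Ethanol 2 was low and the other 8 libraries spanned 76.4 to 84.7 CPM. The log2 fold change of −0.13 (SE 0.13, adjusted p = 0.963 by edgeR) became 0.02 without ethanol 2.

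Tfeb, the regulator, was itself expressed at a moderate level, 10.4 CPM per kilobase (chr17:47737030-47792419, plus strand). Saline 1 to 5 had 65.0, 57.3, 63.0, 60.4 and 53.9 CPM and ethanol 1 to 4 had 64.3, 56.1, 57.1 and 52.2 CPM. In both groups the values spread over the same range. The means were 59.9 ± 4.46 CPM (SD, n = 5) and 57.4 ± 5.06 CPM (SD, n = 4), with a log2 fold change of −0.06 (95% interval −0.26 to 0.13; adjusted p = 0.963 by edgeR).

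**Figure D3:**
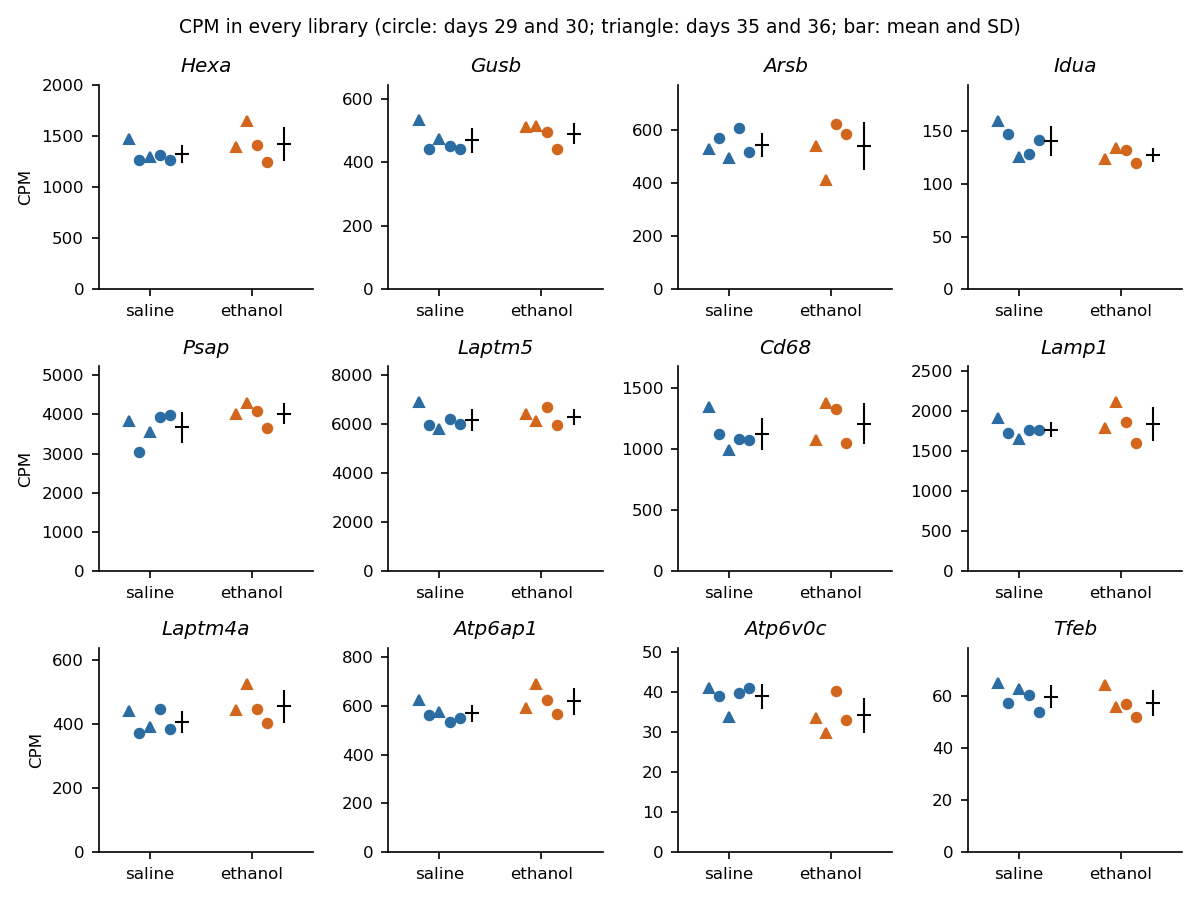
CPM of 12 lysosomal genes in every library, with circles for mice of 29 and 30 days, triangles for mice of 35 and 36 days, and a bar for the mean and SD of each group; each axis starts at 0. In every panel the saline (blue) and ethanol (orange) points overlap.

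The ethanol effects of genes with and without the E-box covered overlapping ranges. The 9 with a TCACGTG match had log2 fold changes from −0.26 to 0.16 with a median of 0.0080 and 5 above 0. The 23 without one ran from −0.19 to 0.16 with a median of 0.04 and 16 above 0. Their levels differed in order: the median was 34.6 CPM per kilobase with a match and 105 without. These values describe the 32 genes and were not tested.

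Library by library, the summed level of the 34 genes ran from 25401 CPM in saline 3 to 29691 CPM in ethanol 2. The highest libraries were ethanol 2 (29691), saline 1 (29243) and ethanol 3 (28710), and the lowest were saline 3 (25401), ethanol 4 (25432) and saline 2 (25441), so each end held both treatments. Ethanol 2, saline 1 and ethanol 3 also had the highest summed microglial markers, at 67219, 65314 and 65006 CPM; the part of this in the lysosomal levels was not tested. No lysosomal gene of the 34 was more than 2-fold low in ethanol 2, where 615 of 8480 genes were. Against the median of the libraries other than saline 1 and ethanol 2, this count was again 0 of the 34. By the same measure it was 6 of the 106 tested genes of the wider lysosomal list and 1035 of all 13067 genes. Relative to the gene's median over the 7 libraries other than saline 1 and ethanol 2, the lowest values in ethanol 2 were −0.70 for Atp6v0d1, −0.47 for Ids, −0.46 for Arsb, −0.38 for Atp6v0c and −0.37 for Gla on the log2 scale. At the other end stood Cd63 (0.48) and Laptm4a (0.38). Genes of the same pump thus lay on both sides of their median in ethanol 2, with Atp6ap1 at 0.29.

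**Figure D4:**
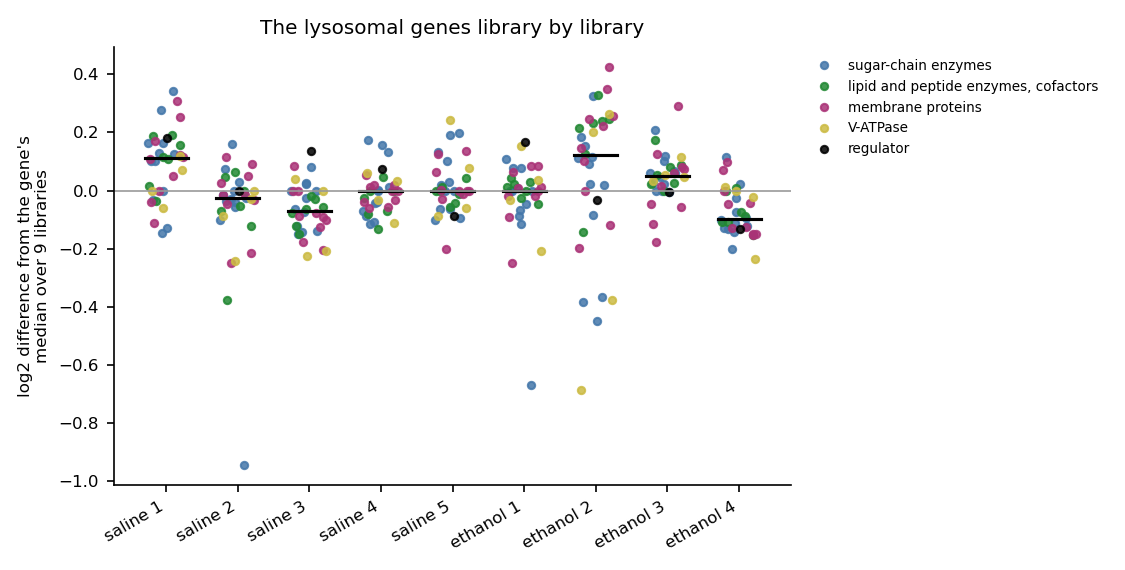
Log2 difference of each of the 34 genes from its own median over the 9 libraries, coloured by role, with a black line at the median of each library. Most points lie close to 0. Saline 1 and ethanol 2 have the highest medians, the lowest V-ATPase point is Atp6v0d1 in ethanol 2, and the lowest points of saline 2 and ethanol 1 are Gla.

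Age at collection was another labelled difference, with 4 older mice (35 and 36 days) and 5 younger (29 and 30 days). Ethanol was kept as a covariate. All libraries with the name suffix 1-6-16 came from younger mice, and those with 1-5-16 or 1-X-16 from older mice, except saline 4. No age fit included the suffix, so age and suffix cannot be told apart here. edgeR called 0 of 13067 genes (0%), with a smallest adjusted p of 0.973; DESeq2 and limma-voom also called 0, with 451 and 430 genes at an unadjusted p under 0.05. At that unadjusted level edgeR picked 372 genes (2.85%) and 2 of the 34, Gusb and Arsb. With 1 library left out that count ran from 0 (without saline 2, saline 4 or ethanol 4) to 4 (Cd63, Gusb, Hexa and Tpp1, without saline 3). Over all genes it was 259 of 12857, 430 of 12976 and 214 of 13214 in the former fits. Without saline 3 it was 653 of 12868, so the count over all genes rose as well. Gusb averaged 508 CPM in older and 455 CPM in younger mice, a log2 difference of 0.16 (SE 0.07, adjusted p = 0.973). Every older mouse but saline 3 exceeded every younger mouse. Arsb averaged 494 and 580 CPM, a log2 difference of −0.23 (SE 0.10, adjusted p = 0.973), and −0.15 without ethanol 2, its lowest library. Without both saline 1 and ethanol 2, the values were 0.11 for Gusb and −0.18 for Arsb. In that fit 0 of the 34 and 710 of 13247 genes had an unadjusted p under 0.05 by edgeR.

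The ethanol effect was also compared between the age cohorts, which leaves only 2 mice in 3 of the 4 cells. The same overlap of age with the library-name suffix holds here. edgeR called 0 of 13067 genes for the interaction (0%), with a smallest adjusted p of 0.972; limma-voom called 0 and DESeq2 1, which is not a member. At an unadjusted p under 0.05, edgeR picked 423 genes (3.24%) and 0 of the 34. The largest estimates among the 34 were −0.86 for Gla (SE 0.53) and −0.41 for Atp6v0d1 (SE 0.26). The intervals were wider here, and 26 of the 34 lay within 1.5-fold. Without ethanol 1, which leaves ethanol 2 as the lone older ethanol mouse with a spread assumed like that of the other groups, 848 of 13343 genes were called (6.36%), and Atp6v0d1 was the 1 member of 34 among them.

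In a wider list of 110 other lysosomal genes, 106 were tested: hydrolases, further membrane proteins, V-ATPase subunits, sorting machinery and signalling proteins. None was called for ethanol, age or the interaction with all 9 libraries. For ethanol 63 of the 106 lay above 0 with a median of 0.03, and 2 had an unadjusted p under 0.05, of which Naaa is described here.

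Naaa, an acid amidase of fatty acid ethanolamides, had 56.3, 53.7, 42.2, 51.8 and 41.9 CPM in saline 1 to 5 and 54.9, 54.5, 68.9 and 63.3 CPM in ethanol 1 to 4. Ethanol 3 and 4 lay above every saline library. Its log2 fold change was 0.30 (95% interval 0.04 to 0.55; unadjusted p = 0.028 and adjusted p = 0.963 by edgeR). The unadjusted p rose to 0.065 to 0.097 on leaving out saline 3, saline 5, ethanol 3 or ethanol 4.

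Ap3d1, a subunit of an adaptor complex that sorts proteins to lysosomes, had 171, 170, 212, 167 and 168 CPM in saline 1 to 5 and 162, 106, 132 and 176 CPM in ethanol 1 to 4. Ethanol 2 was the lowest and saline 3 the highest. Its log2 fold change was −0.30 (unadjusted p = 0.052, adjusted p = 0.963 by edgeR). It was −0.19 without ethanol 2 and −0.41 without ethanol 4. The 11 tested sorting genes had a median deviation of −0.55 in ethanol 2, measured in the same way.

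Pld4, a lysosomal nuclease, averaged 453 CPM per kilobase, and Ctsa, the protective protein that stabilises Neu1 and Glb1, 384. Both were among the 3 highest of the wider list. Their ethanol log2 fold changes were 0.09 and 0.07, with an adjusted p of 0.963 for both by edgeR. That of Ctsa was −0.03 without ethanol 2.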

How the data were processed

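The authors deposited counts of reads per gene and library as whole, unscaled numbers. Per the submitters' processing notes, the tools were HTSeq 0.6.1, STAR 2.4.2a and Trimmomatic 0.32 and the build was GRCm38.p4. Strand setting and annotation release: not given in the sources used here. Genes were filtered with filterByExpr (minimum count 10, minimum total 15) and scaled by TMM. Comparisons used robust quasi-likelihood F tests (edgeR 4.0.16, R 4.3.3), Benjamini-Hochberg adjustment over 13067 genes and a threshold of 0.05. Standard errors and 95% intervals were derived from each gene's F statistic. The 9 libraries came from separate mice.

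Coordinates and exon lengths were taken by symbol from GENCODE M21 (GRCm38), which gave lengths for 12385 tested genes and all members; promoters were RefSeq's. Overlaps and near copies (blastn 2.17.0) were checked. Besides the overlaps given above, Ppt1, Npc1 and Grn share 129, 90 and 68 exonic bases with genes on the other strand. The members and lists were chosen with earlier results of these data known. Values in every library are given, per role, for the member highest per kilobase and that with the smallest ethanol p, for members with an unadjusted p under 0.05 in any test, and for Lamp1, Cd68 and Tfeb. From the wider list the 3 highest and the 3 with the smallest p were to be named; a result that this rule selects is not reported here.

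Alternatives were DESeq2 1.42.0, limma-voom (limma 3.58.1), RLE size factors, no filter, a filter of 5 CPM in 4 libraries, leaving out each library, age cohort or library-name suffix as a covariate or alone, a replicate block, removal of a GC and length trend, and transcript length. The procedure was tested on simulated data.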

Additional observations from a re-analysis of the deposited data

Results flagged for a closer look

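In 78 groups of 4 or 5 libraries examined for a value far from the rest, 8 were picked out. Chance picks about 1 in 20 where groups are independent and values normally spread. These groups came from the same 9 libraries. They covered only the 34 genes and genes picked by rule from the wider list. The share over all genes was not computed, so no excess can be read from the 8. Hexa was at 1475 CPM in saline 1, against 1262 to 1317 CPM in the other saline libraries. Tpp1 was at 779 CPM in the same library, against 649 to 682 CPM. Ethanol 2 held 3 of them: Atp6v0d1 at 50.3 CPM (others 79.5 to 83.1), Ids at 108 CPM (143 to 150) and Ppt1 at 482 CPM (402 to 413). Saline 3 held Atp6v0c at 33.7 CPM (others 39.0 to 41.2) and Ap3d1 at 212 CPM (167 to 171). Manba was at 119 CPM in saline 5, against 102 to 106 CPM.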

How the results depend on the processing

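No alternative called any of the 34 genes for ethanol. For age, 97 genes were called with no filter and 3 without saline 1 and ethanol 2, against 0, none a member; leaving out 1 library gave 0. For the interaction, DESeq2 called 1 gene and no filter 53; leaving out 1 library gave 0 to 848 genes and 0 to 1 members. The median level was 93.5 CPM per kilobase with longest transcripts, against 65.2 with merged exons. For no member is the longest transcript longer than the merged exons, so each level per kilobase could only stay or rise. Why the numbers of called genes differed between alternatives was not tested.

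Ethanol log2 fold changes that changed sign were all under 0.3 in size. Arsb gave 0.077 with limma-voom, 0.089 without saline 1 and ethanol 2, 0.0069 with age as covariate, 0.094 in younger mice, 0.15 within suffix 1-6-16 and 0.013 without the GC and length trend. Grn gave −0.0032 with limma-voom, −0.0012 without saline 1 and ethanol 2 and −0.0043 in younger mice. Atp6v0d1 gave 0.022 without that pair, 0.057 in younger mice and 0.11 within 1-6-16. Gla gave 0.12 in younger mice and 0.28 within 1-6-16, Lamp1 −0.024 and −0.018, and Ctsa −0.0099 and −0.0078. Laptm5 gave −0.016 in older mice, Idua 0.026 within 1-5-16 and Tfeb 0.0080 without the GC and length trend.

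With 1 library left out, Arsb ranged from −0.085 to 0.097, Lamp1 from −0.019 to 0.12, Ctsa from −0.028 to 0.12, Atp6v0d1 from −0.19 to 0.016, Grn from −0.044 to 0.095 and Laptm5 from −0.00049 to 0.074. Without a change of sign, Hexa ranged from 0.027 to 0.17, Gusb from 0.040 to 0.12, Idua from −0.18 to −0.091, Psap from 0.069 to 0.17, Cd68 from 0.029 to 0.18, Laptm4a from 0.082 to 0.21, Atp6ap1 from 0.055 to 0.16, Atp6v0c from −0.28 to −0.13, Tfeb from −0.11 to −0.019, Gla from −0.44 to −0.13, Naaa from 0.23 to 0.35, Ap3d1 from −0.41 to −0.19 and Pld4 from 0.020 to 0.12. Members above 0 ranged from 16 to 23, a count added after the data were seen. Within the suffixes 1-5-16 and 1-6-16, 24 and 15 were above 0; saline 1 alone carried 1-X-16.

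With the replicate number as a block, edgeR called 0 genes for ethanol, with 234 at an unadjusted p under 0.05, and 0 for age. Deviations from the group means had correlations of −0.04, −0.0047, −0.09 and −0.06 between same-number libraries. Between libraries of unlike number they ran from −0.34 to 0.25. With so few libraries, these values cannot tell whether the numbers pair the mice. Effects smaller than the intervals given were not detectable with 4 and 5 mice.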
